A study of Mus musculus with 21 samples.

Results

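The stretch of mouse chromosome 7 that carries the embryonic beta-like globin genes Hbb-bh2, Hbb-bh1 and Hbb-y was followed as a contact target in 7 libraries of circular chromosome conformation capture with sequencing (4C-seq). This assay fixes chromatin, cuts and ligates it, and sequences what was joined to 1 chosen fragment, the viewpoint, so its signal tells how often other places lay close to that fragment in the cells sampled. The members were chosen by position alone, as every deposited position from 110984000 to 111002000 on chromosome 7 (mm9), between the Hbb-b1 promoter and the locus control region. These are 19 positions 1 kb apart in each library, 133 values of the 3007 positions of the beta-globin libraries and of 14771 in all 21 libraries of the series. The viewpoints were a gene promoter (Hbb-b1), a site of the control region (HS-2) and a pair of flanking sites (3' HS-1 and, beyond the control region, HS-62). The first 3 were profiled with the enzymes DpnII and Csp6I in fetal liver and fetal brain, and HS-62 with NlaIII and DpnII in fetal liver alone. All 7 libraries came from C57BL/6 mice at 14.5 days post coitum, with cells pooled from several embryos and fixed in 2% formaldehyde for 10 minutes. Each combination of viewpoint and tissue was 1 library, so no comparison below has a replicate check and no p-value was computed.

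Hbb-y (epsilon-y globin) and Hbb-bh1 (beta-h1 globin) encode beta-like chains of embryonic haemoglobin and are active in the primitive red cells of the yolk sac. In the fetal liver, where definitive red cells are made, the adult beta-globin genes have taken over and the embryonic genes are largely silent. The locus control region, a cluster of hypersensitive sites that includes HS-2, is the enhancer of the whole cluster and is known to contact its active genes. Brain is not a blood-forming tissue. The signal averages over all cells of a tissue. 4C-seq reads DNA and no RNA, so the tissues were not checked here against marker genes.

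All 3 members are in the RefSeq gene table (GRCm38.p6), which orders them Hbb-bh2, Hbb-bh1, Hbb-y along chromosome 7. Before Hbb-bh2 come the adult genes Hbb-bt and Hbb-bs and the pseudogenes Gm15115 and Hbb-bh3. The gene that follows Hbb-y is the olfactory receptor gene Olfr66. That build is not the mm9 of the signal, so no position below is assigned to 1 gene. Along the stretch, positions next to the Hbb-b1 promoter come first and positions next to the control region last.

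Promoter sequences are shown because promoters are what an enhancer contacts in this locus, and because globin promoters are known for a few short motifs. RefSeq (GRCm38.p6) gave 250 bases before the annotated start for 2 of the 3 members, Hbb-y (chr7:103853208-103853457, minus strand) and Hbb-bh2 (chr7:103840522-103840771, minus strand). The adult gene Hbb-bs (chr7:103827929-103828178, minus strand) is set beside them. All are written 5′ to 3′ along the gene, and capitals mark the CCAAT box, the CACCC box, the TATA-like run ATAAA and the GATA motif, each on either strand, some of which overlap.
Hbb-y: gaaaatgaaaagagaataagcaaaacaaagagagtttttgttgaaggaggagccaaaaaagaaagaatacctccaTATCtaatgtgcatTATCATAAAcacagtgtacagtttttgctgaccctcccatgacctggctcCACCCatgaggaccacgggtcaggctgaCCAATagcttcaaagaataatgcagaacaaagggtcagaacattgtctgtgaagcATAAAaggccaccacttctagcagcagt
Hbb-bh2: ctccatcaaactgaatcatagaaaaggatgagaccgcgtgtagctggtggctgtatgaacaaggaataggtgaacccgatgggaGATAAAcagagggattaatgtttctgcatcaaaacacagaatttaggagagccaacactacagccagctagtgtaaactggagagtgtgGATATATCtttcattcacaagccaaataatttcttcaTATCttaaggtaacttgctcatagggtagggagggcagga
Hbb-bs: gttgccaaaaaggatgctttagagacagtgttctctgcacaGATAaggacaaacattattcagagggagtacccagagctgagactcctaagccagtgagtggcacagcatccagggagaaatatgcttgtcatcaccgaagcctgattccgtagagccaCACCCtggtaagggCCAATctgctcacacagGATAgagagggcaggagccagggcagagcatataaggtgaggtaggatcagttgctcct

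Hbb-y held CACCC 111 bases and CCAAT 83 bases before its start, and the ATAAA run 28 bases before it. Hbb-bs had CACCC at 90 and CCAAT at 76 bases, closer together than in Hbb-y. In the Hbb-bh2 window neither the CCAAT box nor the CACCC box was found on either strand, and GATA occurred 4 times. Of 32851 mouse promoters of this length in the table, 33.8% hold the CCAAT box, 52% the CACCC box, 37.3% the ATAAA run and 53.6% the GATA motif, so each match alone is common. The sites that the enzymes cut were also searched. GATC, the DpnII site, was in neither member window and once in that of Hbb-bs, GTAC (Csp6I) once each in Hbb-y and Hbb-bs, and CATG (NlaIII) 2 times in Hbb-y. These sites occur in 41.9%, 31.5% and 53.9% of all promoters in the table.

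The deposited signal is smoothed over running windows, each with a middle, a higher and a lower value. Below, "signal" is the middle value of the 5 kb window and "relative signal" sets it against the mean of its library over positions more than 10 kb from the viewpoint. The HS-62 library covers 601 positions (110700000 to 111300000) and the others 401 each (110800000 to 111200000). The mean that scales HS-62 thus takes in a wider span. The sources used here do not give read numbers, so the depth is unknown and counting intervals cannot be had. The share of empty positions beyond 10 kb was 24.1% (Hbb-b1 promoter) and 51.2% (HS-2) in liver, 6.37% and 6.90% for these viewpoints in brain, and 3.47% to 6.65% in the other 3 libraries. The stretch itself was filled: none of its 19 positions was empty in any library, at 5 kb or at 2 kb. The only libraries of 1 tissue and viewpoint that could be compared are a technical pair from another locus. They are the Hba-a1 promoter in liver with full and with 1/16 template. Over 16 blocks of 19 positions that pair differed with an SD of 0.83 on the log2 scale, from -2.19 to 0.54. This SD is a spread of blocks along 1 locus, not a spread between repeated libraries.

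From both inner viewpoints, the embryonic stretch in fetal liver was lower than the element on its far side. Seen from the Hbb-b1 promoter, the signal at HS-2 (111003000 to 111009000) was 6.32 times the mean of the stretch (its positions at least 10 kb from the viewpoint), although HS-2 lies farther away. From HS-2, the signal at the Hbb-b1 promoter (110974000 to 110980000) was 5.76 times that of the stretch, again across it. In fetal brain the same ratios were 0.837 and 0.680, so there the stretch stood slightly above the element beyond it. These ratios are taken within 1 library and need no scaling between libraries.

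Between the tissues the step differed by 2.92 on the log2 scale from the Hbb-b1 promoter and by 3.08 from HS-2. The full and 1/16 template libraries differed by 0.60 in the like step from the Hba-a1 promoter, HS-26 against the positions 10 to 25 kb from that promoter. Both beta-globin differences thus exceeded this 1 technical difference, and both stayed above 2-fold in 10 of 10 other settings, with 1.38 to 3.61 and 2.46 to 4.33. The 1.38 came from the authors' higher window values. The 4.33 came from the 2 kb window, where 4 of the 7 positions at the Hbb-b1 promoter are empty in brain. Without them it was 3.11. In the brain library of the Hbb-b1 promoter 4 of the 7 were empty too, although its own viewpoint lies there. In the DpnII and Csp6I liver libraries 0 of the 7 were. The 5 kb windows overlap these positions, and the part of this difference in the 3.08 was not tested. No library was repeated, so biological spread is unknown. The library fill given above moved with the tissue at both viewpoints, and its part in the step was not tested.

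**Figure D1:**
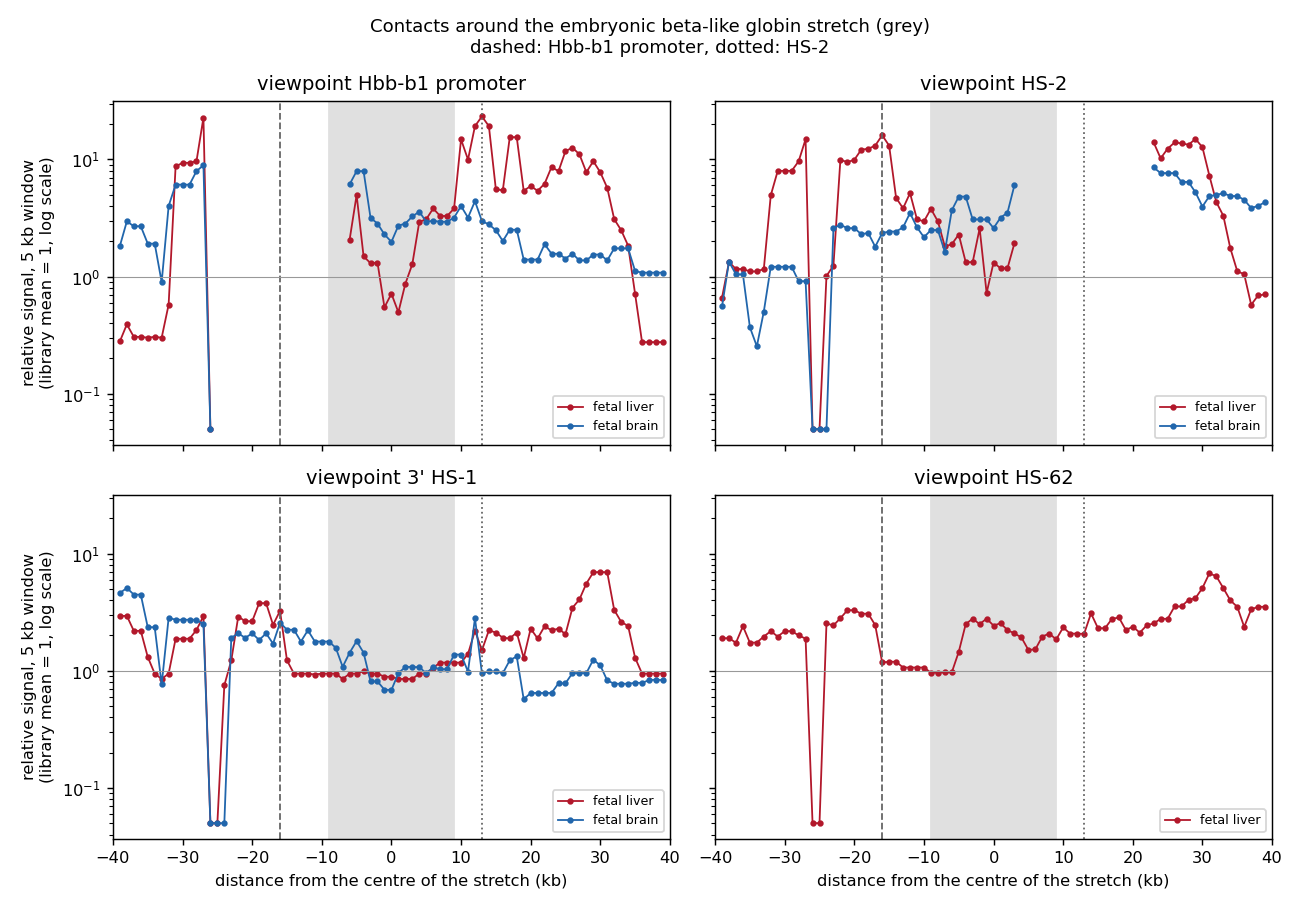
Relative signal (5 kb window, log axis, library mean at 1) against distance from the centre of the embryonic stretch in kb, for 4 viewpoints, with fetal liver in red and fetal brain in blue. Grey marks the stretch, positions within 10 kb of the viewpoint are left out, and values under 0.05 are drawn at 0.05. From the Hbb-b1 promoter and HS-2 the liver line dips in the grey stretch and is 6.32 and 5.76 times higher at the element on its far side, while the brain line has no such step.

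The levels behind these steps were as follows. From the Hbb-b1 promoter in liver, relative signal over the 19 positions ran from 0.496 through a median of 2.07 to 4.97, against 13.9 at HS-2. In brain it ran from 1.98 through 3.17 to 7.94, against 3.12 at HS-2. The ranges overlapped, and liver reached below brain while HS-2 was far higher in liver.

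From HS-2 in liver, relative signal ran from 0.724 through a median of 2.29 to 10.98, with 10.8 at the Hbb-b1 promoter. In brain it ran from 1.63 through 3.68 to 23.3, with 2.33 at the Hbb-b1 promoter. The highest member in both tissues was 111.002 Mb, the member nearest to this viewpoint, 4 kb from it.

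In deposited signal, the 16 positions at least 10 kb from the Hbb-b1 promoter averaged 0.0712 in liver and 0.0853 in brain. The authors' lower and higher window values averaged 0.0161 and 0.465 in liver and 0.0292 and 0.226 in brain, so the windows overlapped widely. From HS-2, the 13 positions beyond 10 kb averaged 0.0246 in liver, between 0.00365 and 0.114, and 0.0713 in brain, between 0.0281 and 0.157.

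**Figure D2:**
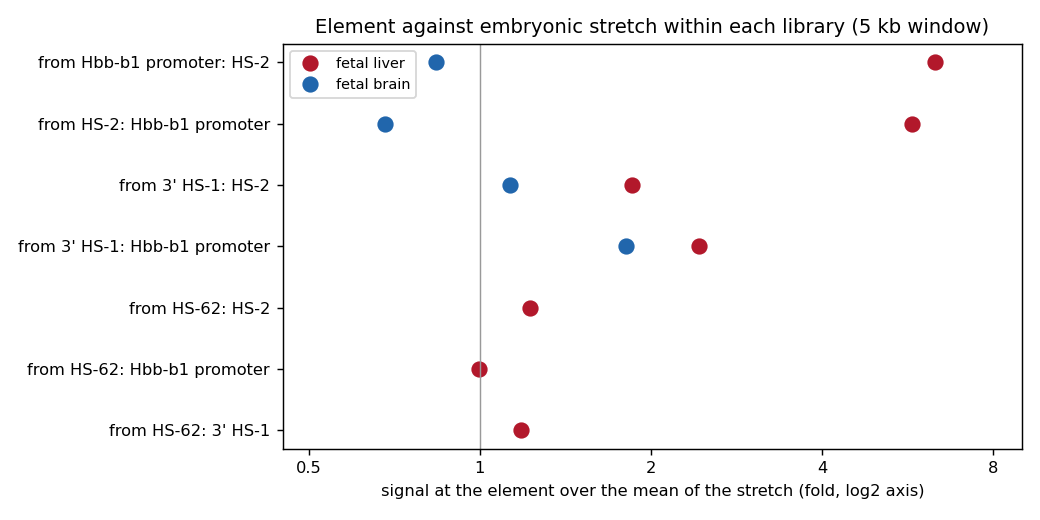
Signal within 3 kb of an element divided by the mean signal of the embryonic stretch in the same library (log2 axis, 5 kb window), for each pair of viewpoint and element, 1 point per library. Liver points lie at 6.32 and 5.76 between the Hbb-b1 promoter and HS-2 and brain points at 0.837 and 0.680; from 3' HS-1 the tissues lie closer together, and from HS-62 the liver points lie near 1.

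Set against brain in relative signal, the stretch was lower in liver by 0.76 on the log2 scale from the Hbb-b1 promoter (2.20 against 3.73) and by 0.87 from HS-2 (1.87 against 3.42). The difference from the Hbb-b1 promoter is smaller than the template pair's block SD and the one from HS-2 slightly larger. Both lie inside the range of that pair's blocks, -2.19 to 0.54, so this yardstick does not separate them. Single positions at least 2-fold higher in brain were 9 of 16 from the Hbb-b1 promoter, where 76.1% of all 377 positions were so called. From HS-2 they were 7 of 13, against 71.6% of all positions. Brain exceeded liver over most of the locus on this scale at 5 kb, so these counts show nothing that sets the embryonic genes apart. The median log2 ratio over all positions was -2.93 and -2.97 from these viewpoints and 0.24 from 3' HS-1. At 2 kb these medians were -0.47, -0.63 and 0, while the means of the stretch differed by -0.89, -1.20 and -0.55. Positions empty in both tissues count as 0 in these medians. The like medians over the member positions were -1.20, -1.07 and -0.18 at 5 kb. At 2 kb they were -1.61, -1.19 and -0.53. From the inner viewpoints the stretch thus lay above the locus median at 5 kb and below it at 2 kb. Its standing against the locus turned with the window, and the part of empty positions in this was not tested.

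With the 2 kb window the counts were 9 of 16 (47.9% of all positions) and 9 of 13 (47.1%). No member was at least 2-fold higher in liver at 5 kb, from the Hbb-b1 promoter (0 of 16, against 9.28% of all positions) or from HS-2 (0 of 13, against 7.96%). At 2 kb the counts were again 0, against 15% and 11.6% of all positions. Neighbouring positions share smoothing windows and are not independent. Over the 10 positions at least 10 kb from both inner viewpoints, 110.987 to 110.996 Mb, a choice made after the data were seen, relative signal was 1.50 in liver and 4.11 in brain from the Hbb-b1 promoter, and seen from HS-2 1.57 and 3.78. These are log2 differences of -1.45 and -1.27, both past 2-fold. Scaling by the library's median turned the difference from the Hbb-b1 promoter to 3.40, as the liver median is close to 0.

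At 5 kb the middle values of the tissues differed most in the inner part of the stretch. The largest excess of brain from the Hbb-b1 promoter was at 110.994 Mb, with relative signal 0.496 in liver and 2.72 in brain, a 5.48-fold difference. From HS-2 it was at 110.992 Mb, with 0.724 in liver and 3.07 in brain, 4.24-fold. Both folds rest on middle values. In deposited signal from the Hbb-b1 promoter, the liver window at 110.994 Mb reached from 0.00261 to 0.361. The brain window there, 0.00832 to 0.151, lay inside it. The like held at 110.992 Mb from HS-2, with a brain window of 0.0157 to 0.135 inside a liver window of 0.000132 to 0.135. The size of these 2 folds is thus not settled. Toward the control region the order turned for the Hbb-b1 promoter, with liver highest over brain at 110.999 Mb (3.81 against 2.99). From HS-2 the largest excess of liver was at the other end, at 110.984 Mb next to the Hbb-b1 promoter (3.78 against 2.49). In both cases liver exceeded brain at 5 kb near the end of the stretch that adjoins the element on its far side. These excesses were 0.35 and 0.60 on the log2 scale, below the template pair's SD of 1.05 for single positions. At 2 kb only 2 of 16 positions from the Hbb-b1 promoter and 2 of 13 from HS-2 were higher in liver. The largest excess of brain at 2 kb was at 110.988 Mb from the Hbb-b1 promoter, outside the middle part, and at 110.994 Mb from HS-2.

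**Figure D3:**
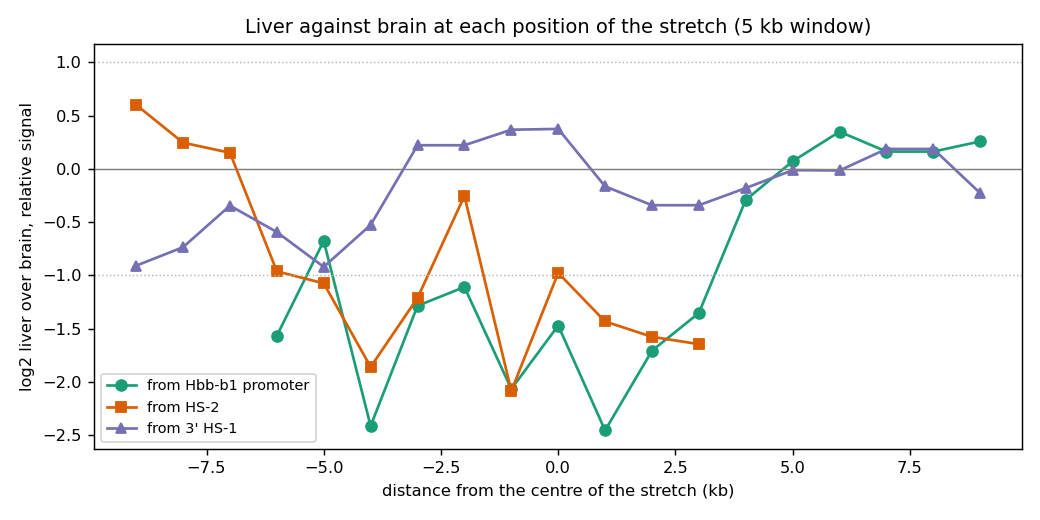
Log2 ratio of relative signal, liver over brain, at each position of the embryonic stretch at least 10 kb from the viewpoint (5 kb window), against distance from the centre of the stretch in kb; dotted lines mark 2-fold. From the Hbb-b1 promoter and HS-2 the inner positions lie below 0, down to -2.46 and -2.09, and from 3' HS-1 all 19 lie within 2-fold.

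3' HS-1, a site beyond the adult genes known to bind CTCF, looks at the stretch from 41.5 to 59.5 kb away. In liver its profile was flat there, with relative signal from 0.850 through a median of 0.945 to 1.17. Many of these positions held the same signal, such as 0.0256 or 0.0230. In that library 13.6% of positions beyond 10 kb held its commonest value, which 0 members held, against 1.06% in the brain library. The part of repeated values in the flatness was not tested. In brain it ran from 0.685 through 1.07 to 1.79, so the brain range spanned the whole liver range. The mean was 0.963 in liver, against 1.14 in brain. Their log2 difference was -0.25, within the template pair's SD, and 0.72 with the authors' lower values.

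From 3' HS-1 in liver, the Hbb-b1 promoter stood at 2.43 times and HS-2 at 1.85 times the stretch, and in brain at 1.81 and 1.13 times. The tissue differences of these steps were 0.43 and 0.71 on the log2 scale. Both lie within the template pair's block SD of 0.83, but the step to HS-2 exceeds the 0.60 by which that pair differed in its like step. The 2 kb window took the second to -0.021. The first was 1.87 at 2 kb, and 0.64 there without the empty positions at the Hbb-b1 promoter. It turned to -0.78 with the authors' lower values, so neither step from 3' HS-1 has a settled size. Of the 19 members, 0 were at least 2-fold higher in liver, where 27.7% of all 376 positions were, and 0 were at least 2-fold higher in brain, where 14.1% were. With the 2 kb window 3 members were at least 2-fold higher in liver (31.4% of all positions) and 7 in brain (14.5%). The members' counts therefore depended on the window, and at 2 kb the larger count was on the side of brain.

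From HS-62, the outer site on the other side, no dip was seen. The 19 positions had relative signal from 0.962 through a median of 1.96 to 2.78, with a mean signal of 0.130 between lower and higher values of 0.0298 and 0.386. HS-2 stood 1.23 times, 3' HS-1 1.18 times and the Hbb-b1 promoter 0.997 times as high as the stretch. At 5 kb the embryonic stretch was thus about level with the 3 elements from this end, 56 to 74 kb away. At 2 kb the ratios were 0.951, 0.867 and 0.729 in the same order, so there the stretch stood above all 3. HS-62 has no brain library here, and it was cut with other enzymes, so viewpoint and enzyme cannot be told apart in any contrast with the other libraries.

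Ordered by mean relative signal of the stretch, the libraries ran 3' HS-1 liver (0.963), 3' HS-1 brain (1.14), HS-2 liver (1.87), HS-62 liver (1.89), Hbb-b1 promoter liver (2.20), HS-2 brain (3.42) and Hbb-b1 promoter brain (3.73). Every neighbouring pair in this order differed by less than the template pair's SD of 0.83, the largest gap being 0.71. Neighbours in a sorted order lie close by construction, and the ends, 0.963 and 3.73, lie farther apart than this SD. HS-62 is scaled by a mean over a wider span than the others, so its place among them is not like for like. The inner viewpoints lie within 25 kb of the whole stretch and the outer ones at least 41.5 kb from it, so distance and viewpoint cannot be told apart in this order. At the same distances on the other side of the viewpoint, a comparison added after the data were seen, relative signal around the Hbb-b1 promoter was 3.95 in liver and 3.78 in brain. Around HS-2 it was 9.45 and 6.02. For HS-2 the embryonic side was thus the lower side in both tissues, and also at 2 kb (2.11 against 10.2 in liver and 4.83 against 7.17 in brain). For the Hbb-b1 promoter the sides depended on the window. At 5 kb the embryonic side was lower in liver (2.20 against 3.95) and level in brain (3.73 against 3.78). At 2 kb it was 2.86 against 3.26 in liver, and in brain it was the higher side, with 5.29 against 2.57.

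The stretch had an inner structure. Split into 3 parts, its middle part (110.990 to 110.995 Mb) had the lowest mean in 6 of 6 DpnII and Csp6I libraries at 5 kb. These means take all 19 positions, and the part next to an inner viewpoint holds positions within 10 kb of it, 3 of 6 for the Hbb-b1 promoter and 6 of 7 for HS-2. The far part holds none, and the middle was below it too, by little for HS-2 in brain (3.08 against 3.32). For 3' HS-1 in liver the middle also differed by little, with 0.894 against 0.937 and 1.05 in the outer parts, whose ranges overlapped its own. For the Hbb-b1 promoter in liver, the part adjoining it averaged 2.97, the middle 0.873 and the part next to the control region 3.07. The brain means were 6.50, 2.64 and 3.12, with the far part only slightly above the middle. From HS-62 the middle part was the highest, with 1.30, 2.54 and 1.85 in the same order. At 2 kb the middle part was the lowest in 2 of those 6 libraries and the highest in 1. A sharp local maximum lies within it at that window.

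This maximum, at 110.990 Mb, was the only member higher than both its neighbours in all 7 libraries at 2 kb. It was looked for after the data were seen. Seen from the Hbb-b1 promoter, the signal there was 0.390 in liver and 0.250 in brain. For HS-2 it was 0.0777 and 0.137, from 3' HS-1 0.0665 and 0.0547, and from HS-62 0.283. It was the highest member in 4 of the 7 libraries, those of 3' HS-1 in both tissues, the Hbb-b1 promoter in liver and HS-62.

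Within 2 to 4 kb beyond it lay the lowest of all 19 members in each of the 6 DpnII and Csp6I libraries, tied with 110.995 and 110.996 Mb from 3' HS-1 in liver. At 110.993 Mb it was 0.00891 from the Hbb-b1 promoter in liver, 43.8-fold below the maximum, and 0.0302 in brain, 8.28-fold below. For HS-2 the drop was 16.7-fold in liver and 5.49-fold in brain, and from 3' HS-1 3.57-fold and 14.7-fold. From HS-62 the lowest value there was 0.159, 1.78-fold below the maximum but above that library's stretch mean of 0.140, so it had no low at this place. All these folds compare middle values. From the Hbb-b1 promoter in liver, the authors' lower and higher values were 0 and 0.795 at 110.993 Mb, around the maximum's 0.390. From HS-2 in liver they were 0 and 0.163 at 110.994 Mb, around the maximum's 0.0777. Such values at low and maximum overlapped in every DpnII and Csp6I liver library and in no brain library. The size of the liver drops is thus not settled. The maximum was thus shared by all 7 libraries, and the low by the 6 cut with DpnII and Csp6I and not by the library cut with NlaIII and DpnII. Libraries with the same enzymes read the same fragment ends, and the part of the fragments in this shape was not tested.

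**Figure D4:**
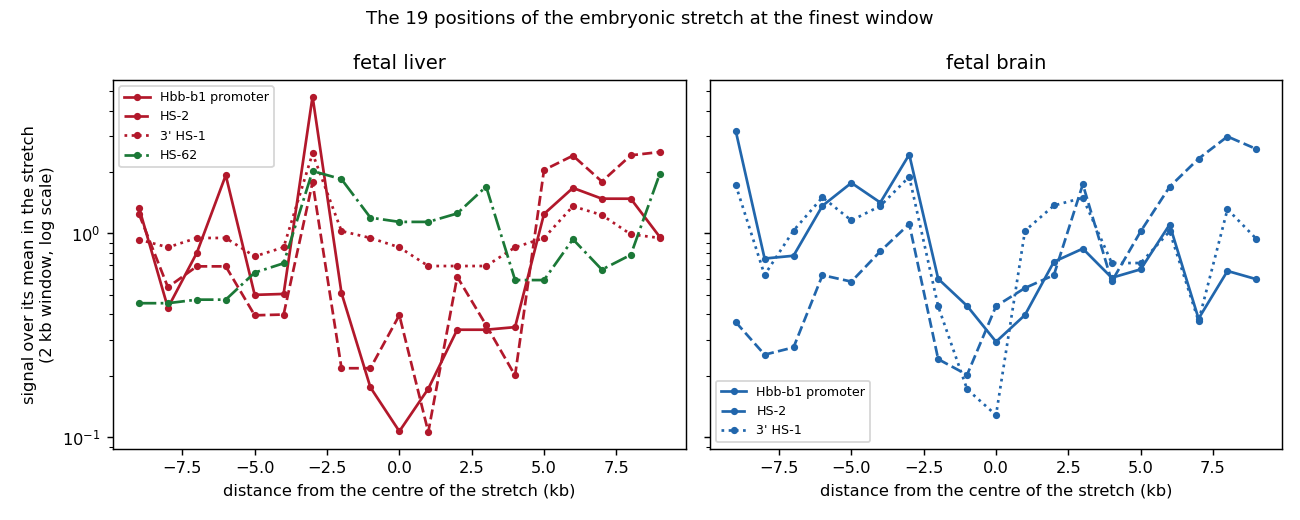
Signal of the 2 kb window at the 19 positions of the embryonic stretch, each library divided by its own mean over the stretch (log axis), against distance from the centre of the stretch in kb; fetal liver at left, fetal brain at right, 1 line per viewpoint. All 7 lines have a local maximum at 110.990 Mb, 3 kb before the centre. The 6 lines other than HS-62 reach their lowest point within the next 4 kb, at least 3.57-fold below that maximum. The HS-62 line stays above its mean there. Only middle values are drawn, and the authors' lower and higher values are left out.

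Over the 19 positions at 5 kb, the liver profiles of the Hbb-b1 promoter and HS-2 ranked alike (Spearman's rho 0.83), although these viewpoints lie at opposite ends of the stretch. In brain the same pair had a rho of 0.00044. The brain profiles of the Hbb-b1 promoter and 3' HS-1, which lie on the same side, had a rho of 0.88. In liver the 3' HS-1 profile, with its many repeated values, had a rho of 0.72 with the Hbb-b1 promoter and 0.77 with HS-2. At 2 kb these were 0.78 and 0.59. Between the tissues at 5 kb, rho was 0.58 for the Hbb-b1 promoter, 0.60 for HS-2 and 0.16 for 3' HS-1. Across both tissue and viewpoint, leaving out HS-62, it ran from 0.24 to 0.64. High values were thus not confined to pairs of liver libraries. All 19 positions enter, also those within 10 kb of an inner viewpoint. The HS-62 profile ran against that of the Hbb-b1 promoter in liver, with a rho of -0.71, and at 2 kb this was -0.17. Neighbouring positions share their windows, so these are descriptions over overlapping values.

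Outside the stretch, the positions whose relative signal over the 7 libraries came closest to its mean were 111.027, 110.961 and 111.084 Mb, of 309 compared. Their root mean square differences were 0.78, 1.11 and 1.37 on the log2 scale. The closest, 111.027 Mb on the far side of the control region, had 1.84 (liver) and 1.74 (brain) from the Hbb-b1 promoter, but 2.41 and 0.774 from 3' HS-1, where the embryonic stretch had 0.963 and 1.14.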

How the data were processed

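The 7 beta-globin libraries were read from the authors' deposited near-cis files, which hold a normalized signal at 1 kb steps for 48 running windows of 2 to 49 kb, with a middle, a higher and a lower value each, as the files' values and names show. Coordinates are mm9, which the submitters' processing notes name. The sources used here do not give the aligner, filters, quantile levels or read numbers. Titles of the liver libraries of 3 viewpoints carry longer numbers than those of brain; whether runs were pooled is not given there.

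From these files, viewpoints were placed at their highest signal at 5 kb (the median over libraries). Relative signal, means over member positions at least 10 kb from the viewpoint, and ratios to the mean within 3 kb of an element were computed (Python 3.11.15, numpy 2.4.6, scipy 1.17.1). A position was called at a 2-fold difference. The template pair was compared with a pseudocount of 10% of the mean, positions matched within 500 bp. Named positions were the highest and lowest member per library, the largest difference per direction and viewpoint, and the 3 positions most like the stretch. With 1 library per group no test was possible. The step calculation was run on simulated profiles whose answer follows from the arithmetic, so this checks the code alone. The decay fit was run on simulated power-law profiles without a lowered stretch or empty positions, unlike these data. Alternatives covered window, scaling, decay, positions and averaging. The members, lists and settings were chosen with earlier results of these data known.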

Additional observations from a re-analysis of the deposited data

How the results depend on the processing

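The steps between the Hbb-b1 promoter and HS-2 kept their direction in 10 of 10 other settings each. From the Hbb-b1 promoter the step came down to 1.38 (log2, liver minus brain) with the higher window values. From HS-2 it went up to 4.33 with the 2 kb window and 3.95 with the lower values. At 2 kb, 4 of the 7 positions at the Hbb-b1 promoter are empty in every brain library, and without empty positions the value was 3.11. From 3' HS-1 the step to HS-2 turned to -0.021 at 2 kb, and to -0.28 there without empty positions. The step from 3' HS-1 to the Hbb-b1 promoter went to 1.87 at 2 kb, and to 0.64 there without empty positions. It turned to -0.78 with the lower values. The lower level of the stretch in liver kept its sign in 14 of 14 settings from HS-2 (-1.54 to -0.49). It kept its sign in 14 of 15 from the Hbb-b1 promoter, with 3.40 when scaled by the median and -1.60 with a decay fitted on its side. Its size there shrank to -0.15 against a power-law decay, -0.17 with the higher window values and -0.26 unscaled. From 3' HS-1 the sign held in 13 of 14, with 0.72 for the lower values. The level from HS-62 (0.92) was 2.22 scaled by the median, -0.27 against a decay fitted on its side, and -2.94 unscaled, which is the deposited signal itself. Where no reason is named, the cause was not tested. Scaling by the median could not be run from HS-2, whose liver median is practically 0, and the 5 kb distance limit changes nothing from 3' HS-1 and HS-62. No paired analysis was possible because each group holds 1 library, and for the same reason no replicate could be left out. Unknown depth and 1 technical pair from another locus limit all comparisons.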
